A study of Mus musculus with 6 samples.

Results

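A set of 9 genes of pyruvate entry into mitochondrial metabolism were followed in livers of mice made chronically hyperlipidemic with poloxamer P-407, a detergent-like polymer that slows the clearance of lipids from blood. They are the pyruvate dehydrogenase kinases Pdk1, Pdk2, Pdk3 and Pdk4, the pyruvate dehydrogenase subunits Pdha1, Pdhb and Dlat, the phosphatase Pdp2 and the pyruvate carboxylase Pcx. Genes were chosen by pathway, and Pdk4 was singled out from its ratios in these same data, so the treated-over-control values of these 9 genes are a description, given without p-values. Whether a gene lay past limma's threshold is stated for orientation, and nothing is read from it. Of the 9 genes, 8 had values on all 3 oligonucleotide arrays, among 16871 genes, and 4 had values on all 3 cDNA arrays, among 5011. Each measured gene had 1 feature on an array type, and Pdk1, Pdk3 and Pdha1 had no cDNA feature used here. No feature naming Pdp2 alone was found, and it is not analysed here.

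Treated mice were 12 female C57BL/6 animals, aged 7 weeks at the start, on a chow diet with 4.4% fat. They were injected intraperitoneally every 3 days with P-407 at 0.5 g/kg. Control mice were 4 animals of the same kind on the same diet that received saline, and livers of both groups were taken at day 96. Treated RNA was combined into 3 pools and control RNA into 1 pool, so single animals cannot be seen. Each treated pool, in Cy5, was set against that control pool, in Cy3, on 1 oligonucleotide array and 1 cDNA array, with no exchange of dyes. Values are treated-over-control log ratios, taken as log2 and centred on each array's median, and the direction follows the titles and dyes in the labels. Ratios give no level, so the labelled tissue could not be checked from its markers. In bulk RNA of this kind, fewer cells of a type and less RNA per cell cannot be told apart.

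Pyruvate dehydrogenase is the mitochondrial complex that turns pyruvate into acetyl-CoA and so commits carbon from glucose to oxidation or to fat synthesis. The kinases switch it off by phosphorylating its E1 alpha subunit, and phosphatases switch it on again. Pyruvate carboxylase takes pyruvate the other way, to oxaloacetate, the starting point of gluconeogenesis. In liver, Pdk4 is known as the kinase gene raised by fasting, fatty acids and glucocorticoids and held down by insulin.

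The start regions of Pdk4 and Pdk1 are shown because these kinase genes had the highest and the lowest oligonucleotide ratio among the pyruvate genes. Both come from RefSeq on GRCm38.p6 and run 5′ to 3′ on the gene's strand, from 250 bases before to 50 bases after the start. Capitals mark a CCAAT box in Pdk4 and a pair of GC boxes in Pdk1. Pdk4 lies at chr6:5496229-5496528 on the minus strand and Pdk1 at chr2:71872974-71873273 on the plus strand.
Pdk4: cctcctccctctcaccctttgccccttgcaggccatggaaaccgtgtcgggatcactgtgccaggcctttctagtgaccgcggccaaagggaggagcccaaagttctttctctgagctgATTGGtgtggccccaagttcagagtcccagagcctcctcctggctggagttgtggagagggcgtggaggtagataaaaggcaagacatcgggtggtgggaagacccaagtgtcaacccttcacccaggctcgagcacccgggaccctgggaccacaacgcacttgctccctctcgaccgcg
Pdk1: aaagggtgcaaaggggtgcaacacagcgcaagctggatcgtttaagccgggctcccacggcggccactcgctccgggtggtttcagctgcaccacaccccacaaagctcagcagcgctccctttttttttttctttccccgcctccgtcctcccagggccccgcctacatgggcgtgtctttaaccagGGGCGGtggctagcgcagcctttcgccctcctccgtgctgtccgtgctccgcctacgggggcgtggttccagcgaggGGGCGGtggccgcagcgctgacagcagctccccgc

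A set of 6 short motifs were searched in these windows on both strands. The CCAAT box (CCAAT) was found once in Pdk4 and is held by 37.4% of 32851 RefSeq windows of this length. The GC box (GGGCGG) was found at 2 places in Pdk1 and is held by 35.7% of the windows. No match was found in either window to the forkhead core GTAAACA (in 3.65% of windows), the nuclear receptor half-site AGGTCA (16.3%), the hypoxia response core ACGTG (19.6%) or the TATA box TATAAA (13.6%). The matches describe letters in the reference and were not related to the ratios.

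The array types differ in spread, which bears on every value below. The median SD of a gene over the 3 pools was 0.08 on the oligonucleotide array and 0.32 on the cDNA array. Across the 4702 genes measured on both, correlations between arrays were 0.81 to 0.84 within the oligonucleotide type, 0.29 to 0.71 within the cDNA type and 0.24 to 0.31 between types, all positive. These arrays share their RNA and the control pool, and genes are not independent. Limma, fitted across all genes of an array type, placed 43.4% of genes past an adjusted p of 0.05 on the oligonucleotide array, 22.0% higher and 21.4% lower. The cDNA fit placed 0% past it, with 1518 genes at an unadjusted p under 0.05 and 1 gene called when each gene's own variance was used.

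Pdk4 had opposite signs on the array types. On the oligonucleotide array its log2 ratio was 1.35, 1.49 and 1.02 in pools 1, 2 and 3, a mean of 1.29 ± 0.24 (SD, n = 3), or 2.44-fold higher in treated livers. Its cDNA log2 ratio was -0.92, -0.43 and -0.67, a mean of -0.67 ± 0.25, or 1.59-fold lower in treated livers. Every oligonucleotide value lay above 0 and every cDNA value below it, so the sets did not overlap. How many of all genes measured on both array types show no overlap was not counted, so nothing is read from it. In the deposited values before centring, the cDNA ratios were -0.99, -0.52 and -0.69. Pdk4 had 1 feature per array type and a ratio on all 6 arrays. Here, no zero was set missing and no features were averaged for it. For filters and normalization by the authors, nothing is stated in the labels. The clone and the oligonucleotide are tied to Pdk4 by the platform annotation alone, and whether both detect the same transcript was not tested.

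The distance between the array types for Pdk4 was 2.27, 1.92 and 1.69 log2 units in pools 1, 2 and 3, a mean of 1.96 ± 0.29 (SD of paired differences). Limma across the 4702 genes gave it an adjusted p of 0.0176, beside 11.4% of all genes past the threshold (6.25% higher and 5.17% lower on the oligonucleotide array). With the pool as a block, which fits the split RNA, its adjusted p was 0.128 and 0 of 4702 genes passed, with 1317 at an unadjusted p under 0.05. Without pool 1 (limma adjusted p = 0.248) or without pool 2 (limma adjusted p = 0.194) it did not pass either, and 0 of all genes did. The mean distance was then 1.81 and 1.98. Without pool 3 it passed (limma adjusted p = 0.0257), beside 1062 of all genes, at a mean distance of 2.09. By size, its excess on the oligonucleotide array ranked 15 of 4702, and its absolute difference in either direction ranked 57. Since Pdk4 was singled out with both sets of ratios known, these p-values are not independent evidence.

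**Figure D1:**
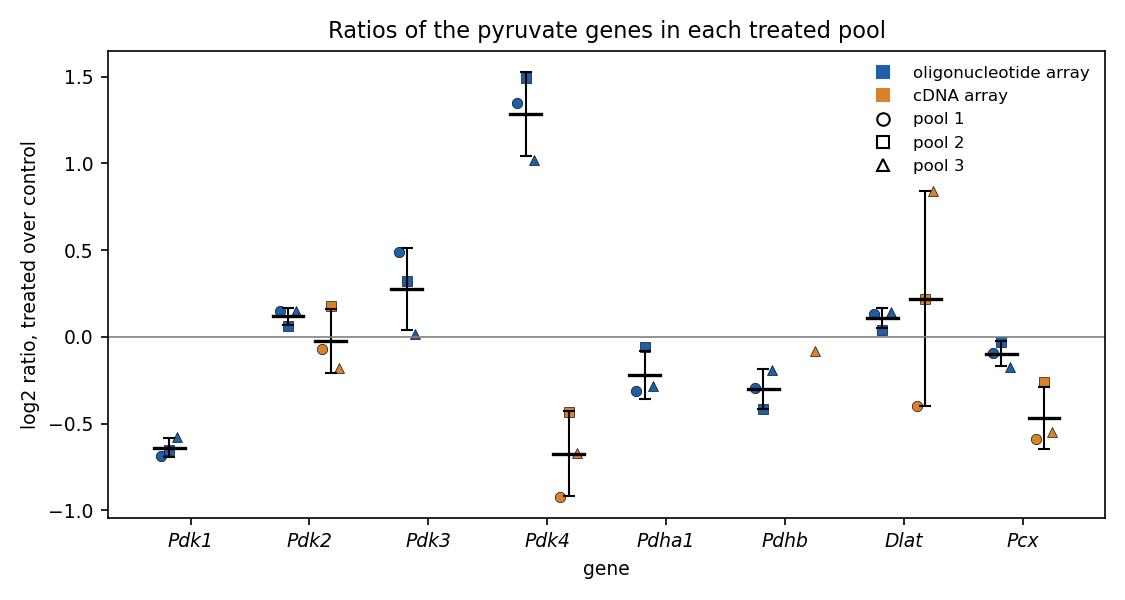
Log2 ratio of treated over control (y axis) for 8 pyruvate genes (x axis), by pool. Blue marks are oligonucleotide arrays and orange marks cDNA arrays, marker shapes are the pools, and bars give the mean and SD over 3 pools. Pdk4 lies at 1.02 to 1.49 on the oligonucleotide arrays and at -0.92 to -0.43 on the cDNA arrays. Pdhb has 1 cDNA value.

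Among genes at a mean of at least 1 on the oligonucleotide array, 54 also had cDNA values, with a median cDNA ratio of 1.33 and a highest of 4.62. Pdk4 had the lowest cDNA mean of the 54, at -0.67. Next came Gyg, glycogenin, which primes glycogen synthesis, at 1.26 ± 0.13 among oligonucleotide ratios and -0.58 ± 0.08 among cDNA ratios. On the oligonucleotide array Pdk4 ranked 57 of 16871 from the highest, between Csf2rb (1.29 ± 0.22), a cytokine receptor chain, and Gyg, and neither neighbour differed from it by more than its spread. By its cDNA mean it ranked 652 of 5011 from the lowest, and 28.6% of genes had a larger absolute ratio.

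**Figure D2:**
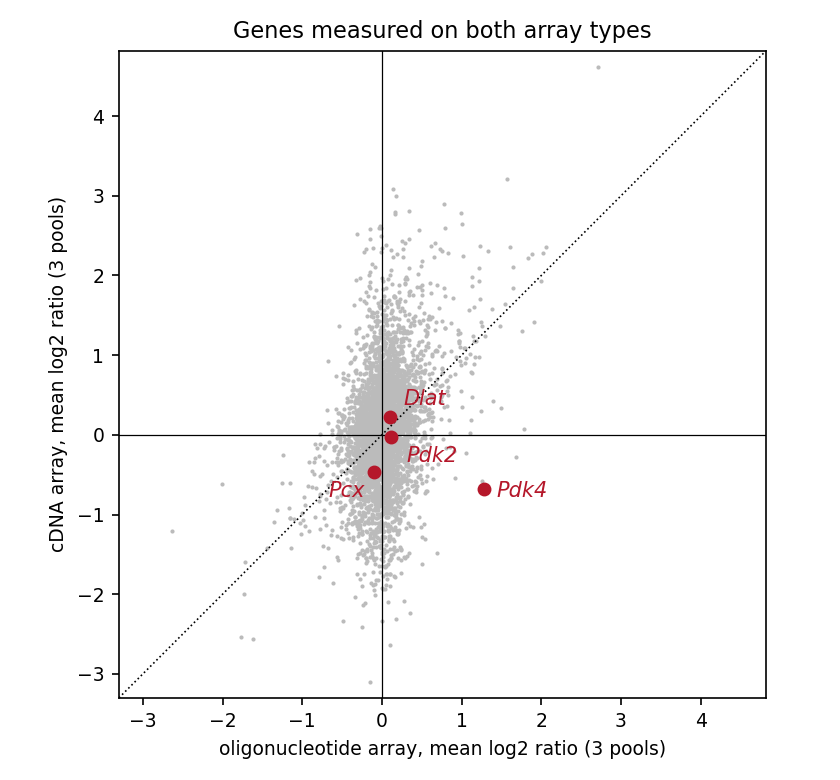
Mean log2 ratio of treated over control on the oligonucleotide array (x axis) against that on the cDNA array (y axis) for 4702 genes in grey, each a mean of 3 pools, with 4 pyruvate genes in red. The dotted line marks equal ratios. Pdk4, at 1.29 and -0.67, lies far below the line, and Pdk2, Dlat and Pcx lie in the body of the cloud.

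Over all 6 arrays, the gene closest to Pdk4 was Gyg, at a root mean square difference of 0.24 log2 units among 4701 other genes. Gyg read 1.40, 1.15 and 1.22 on the oligonucleotide arrays and -0.61, -0.65 and -0.49 on the cDNA arrays. Likeness to Pdk4 on these arrays chose the gene, so its pattern is a description. Next were Plk2, a polo-like kinase gene, at a difference of 0.33 (oligonucleotide mean 0.91, cDNA mean -0.54), and C1qa, a complement subunit, at 0.42 (1.06 and -0.23). Tecpr1, H2-DMb1 and Glb1 followed at 0.50 to 0.51. Positive oligonucleotide means and negative cDNA means in these 6 genes follow from that choice.

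**Figure D3:**
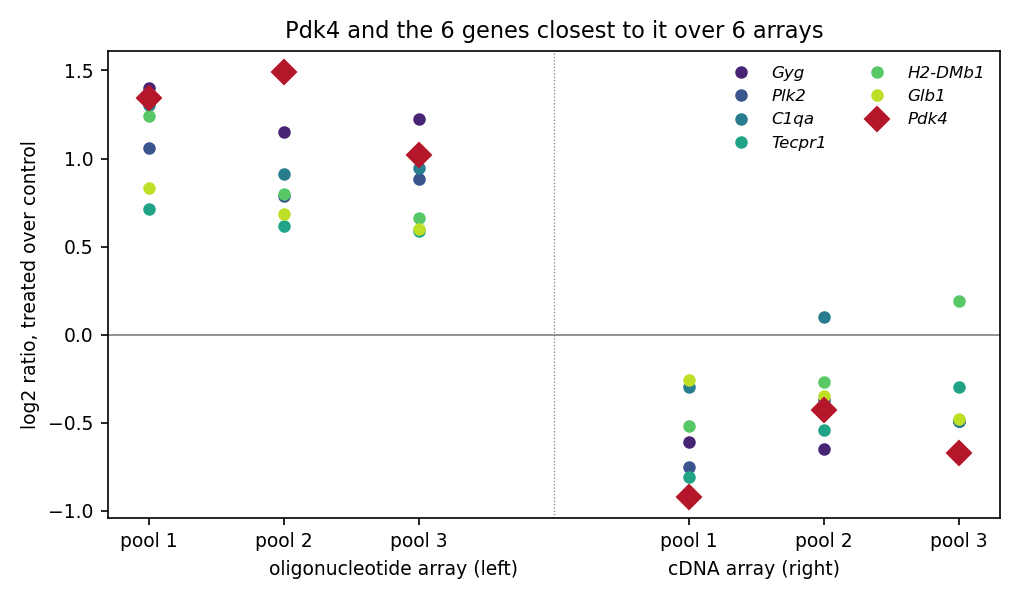
Log2 ratio of treated over control (y axis) on each of 6 arrays (x axis), oligonucleotide arrays left and cDNA arrays right, for Pdk4 (red diamonds) and the 6 genes with the smallest root mean square difference from it (dots). The oligonucleotide values run from 0.59 to 1.49 and the cDNA values from -0.92 to 0.19.

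The other kinase genes ran differently from Pdk4 on the oligonucleotide array. Pdk1, known as the kinase gene induced in low oxygen, read -0.69, -0.65 and -0.58, a mean of -0.64 ± 0.05, or 1.56-fold lower in treated livers. It had the lowest ratio among the 8 measured genes in every pool, with a narrow spread, and 2.77% of genes had a larger absolute ratio. Pdk2, a kinase found in most tissues and abundant in liver, read 0.15, 0.06 and 0.15, a mean of 0.12 ± 0.05. Pdk3, the kinase gene otherwise known from testis and brain, read 0.49, 0.32 and 0.02, a mean of 0.28 ± 0.24. The pools of Pdk3 were far apart, spanning 0.47 log2 units as those of Pdk4 did, and pool 3 of Pdk3 lay close to 0.

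Pdk4 therefore stood above each other kinase gene in every pool of that array type. The distance of its ratio from that of Pdk1 was 1.92 ± 0.29 log2 units, from that of Pdk2 1.17 ± 0.28 and from that of Pdk3 1.01 ± 0.16 (SD, n = 3). These are differences between ratios, not between levels of the kinases. On the cDNA array, where Pdk2 read -0.07, 0.18 and -0.18 (mean -0.02 ± 0.18), the ratio of Pdk4 lay below that of Pdk2 by -0.65 ± 0.18. Pdk1 and Pdk3 had no cDNA feature used here, so the cDNA array does not bear on them.

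Genes of the first step of the complex were slightly lower on the oligonucleotide array. Pdha1, the E1 alpha subunit that the kinases phosphorylate, read -0.31, -0.06 and -0.28, a mean of -0.22 ± 0.14, or 1.16-fold lower in treated livers. Pdhb, its E1 beta partner, read -0.29, -0.42 and -0.19, a mean of -0.30 ± 0.11, or 1.23-fold lower. All 3 pools of both genes lay below 0. Pdhb had a cDNA ratio in pool 3 alone, at -0.08, and a value of 0, taken as missing, in the other two pools.

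Dlat, the E2 core that passes the acetyl group to coenzyme A, read 0.13, 0.04 and 0.15 on the oligonucleotide array, a mean of 0.11 ± 0.06. Its cDNA ratios of -0.40, 0.22 and 0.84 (mean 0.22 ± 0.62) spanned 1.24 log2 units and gave no direction. Pcx, pyruvate carboxylase, read -0.09, -0.03 and -0.17 on the oligonucleotide array, a mean of -0.10 ± 0.07. Its cDNA ratios were -0.59, -0.26 and -0.55, with a mean of -0.47 ± 0.18. Both array types placed Pcx below 0 in all 3 pools. The cDNA values lay lower without overlap, which was not counted over all genes.

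Of the 4 genes measured on both array types, 2 had means of the same sign, Dlat and Pcx, and 2 had opposite means, Pdk2 and Pdk4. For Pdk2 the opposite means differed by 0.14 ± 0.23 (SD of paired differences) and the array types overlapped. Dlat differed by -0.11 ± 0.62 and Pcx by 0.37 ± 0.13. None of these 3 passed limma's array-type test (adjusted p = 0.456 for Pdk2, 0.813 for Dlat and 0.114 for Pcx), which does not show that the array types read them alike. Averaged over the 2 arrays of a pool, the log2 ratio was 0.31 ± 0.20 for Pdk4, 0.05 ± 0.07 for Pdk2, 0.16 ± 0.31 for Dlat and -0.28 ± 0.12 for Pcx, and 0 of the 4 passed, beside 5.10% of all genes (2.47% higher and 2.64% lower). For Pdk4 that average joins values of opposite sign and describes neither array type, and it was 0.19 without pool 2.

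Counted by limma's threshold on the oligonucleotide array, 5 of the 8 genes passed, Pdk3 and Pdk4 higher and Pdk1, Pdha1 and Pdhb lower, and 3 did not, Pdk2, Dlat and Pcx. Without pool 1 the count was 3, namely Pdk1, Pdk4 and Pdhb. Pdk3 also lost its place without pool 2 and Pdha1 without pool 3. The choice of genes used this contrast, so nothing is read from that count beside the 43.4% of all genes. The median log2 ratio of the 8 was 0.00, as it was over all genes, and their median absolute ratio was 0.25, against 0.13 over all genes. Among cDNA ratios 0 of the 4 passed, as for all genes.

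Partners of the same step were read from a list of other genes of the complex and its supply. Of 8 measured partners, 1 was higher and 3 were lower, beside 22.0% higher and 21.4% lower of all genes, with a median of -0.11 (1 lower without pool 2 or without pool 3). The same shares of all genes, and an all-gene median of 0.00, stand beside the counts of the lists that follow. All lists were drawn up with earlier results of these data known, so their p-values are not independent evidence. Pdp1, the other phosphatase that switches the complex on, rose by 0.30 ± 0.13 (limma adjusted p = 0.00995), with 0.30, 0.17 and 0.44 in the 3 pools. Its cDNA ratios of 1.18, -0.31 and 0.26 fell on both sides of 0. Lipt2 (-0.43 ± 0.20, limma adjusted p = 0.00791) and Lipt1 (-0.36 ± 0.27, limma adjusted p = 0.0277), enzymes of the lipoic acid pathway, were lower. Dld, the E3 subunit, was lower at -0.14 ± 0.02 (limma adjusted p = 0.0374), lost with any 1 pool left out, and Lipt1 lost its place without pool 2 or without pool 3.

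Mpc1, a subunit of the carrier that brings pyruvate into mitochondria, lay at 0.00 ± 0.03 and did not pass. Pdhx, which binds E3 to the core, lay at -0.02 ± 0.12, Pdpr, a regulator of the phosphatase, at -0.10 ± 0.05, and Lias, which makes lipoic acid, at -0.12 ± 0.07. None of these 3 passed the test either. Dld had a cDNA mean of -0.44 ± 0.11 and Pdhx of -0.20 ± 0.32, while Pdpr had 0.30 ± 0.29, opposite in sign to its oligonucleotide mean.

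Among genes that supply or remove pyruvate, 7 of 20 were higher and 10 lower on the oligonucleotide array, with a median of -0.12 (4 higher without pool 2). Pkm, the pyruvate kinase of non-hepatocyte tissues, rose by 0.77 ± 0.13, while the liver pyruvate kinase Pklr (-0.09 ± 0.05) did not pass. Gpt2 (-0.79 ± 0.01), which interconverts alanine and pyruvate, Me1 (-0.78 ± 0.16), malic enzyme, and Acly (-0.62 ± 0.10), which splits citrate for fat synthesis, fell. The largest limma adjusted p of these 4 called genes was 0.000864. Slc16a7, a monocarboxylate carrier, lay at -0.04 ± 0.11 and did not pass.

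Genes tied to the control of Pdk4 were read first on the oligonucleotide array, where Pdk4 was positive, as against negative on the cDNA array. Which reading of Pdk4 holds was not tested. Of 23 PPARA targets of fatty acid oxidation, 2 were higher, 3 lower and 18 not past the threshold, beside 43.4% of all genes past it, with a median of -0.05 (-0.01 without pool 3, and -0.08 without pool 2). The counts moved with the pools as well (1 higher without pool 1 or without pool 2, and 2 lower without pool 1 or without pool 3). Plin2, a lipid droplet coat gene, rose by 0.36 ± 0.15 and Acot1, an acyl-CoA thioesterase, by 0.29 ± 0.17, though Acot1 did not pass without pool 1 or without pool 2. Acot3 (-0.89 ± 0.14) and Angptl4 (-0.41 ± 0.20), an inhibitor of lipoprotein lipase, fell. Cyp4a14 (0.16 ± 0.38) and Vnn1 (0.18 ± 0.23) did not pass.

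Of 21 transcription regulators, 3 were higher and 8 lower, or 11 of 21 beside 43.4% of all genes, with a median of -0.06 (-0.13 without pool 2, and 1 higher with any 1 pool left out). Cebpb (-0.93 ± 0.20), Ppara (-0.53 ± 0.15), the fatty acid receptor, Foxo1 (-0.51 ± 0.16), which insulin inactivates, and Esrra (-0.44 ± 0.05), a nuclear receptor of energy metabolism, fell, with a largest limma adjusted p of 0.00274. Ppargc1a, a coactivator, at -0.19 ± 0.27 and Nr4a1 at -0.27 ± 0.43 did not pass. On the cDNA array Ppara lay at -0.84 ± 0.22 and Esrra at -0.55 ± 0.14, the same sign as on the oligonucleotide array. Nr4a1 had a cDNA mean of -0.08 ± 1.42, with pools on both sides of 0 on each array type, and gave no direction. Ppargc1a had a cDNA mean of 0.12 ± 0.10, while its oligonucleotide pools lay on both sides of 0.

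Of 13 insulin and FoxO responsive genes, 5 were higher and 2 lower, with a median of 0.09 (3 higher without pool 1, and 1 lower without pool 1 or without pool 3). Igfbp1, an insulin-repressed secreted protein, rose by 0.82 ± 0.37, Ccng2 by 0.41 ± 0.05 and Sesn3 by 0.25 ± 0.10. Pck1, the gluconeogenic enzyme that uses the product of pyruvate carboxylase, fell (-0.73 ± 0.20), and its cDNA mean was -1.66 ± 0.33. G6pc (-0.13 ± 0.15) and Bcl6 (0.11 ± 0.05) did not pass. On the cDNA array G6pc lay at 0.12 ± 0.29, with pools on both sides of 0, and Bcl6 at 1.10 ± 0.24. Igfbp1 (0.36 ± 0.48) and Ccng2 (0.46 ± 0.46) had positive means there, though pool 1 lay below 0 for both (-0.19 and -0.04). Of 12 glucocorticoid responsive genes, 1 was higher and 7 lower, with a median of -0.36 (2 higher without pool 1). Tsc22d3 (-1.35 ± 0.28), Tat (-1.23 ± 0.26) and Fkbp5 (-0.70 ± 0.13) fell and Cdkn1a rose by 0.69 ± 0.16, with a largest limma adjusted p of 0.00116. Zbtb16 (-0.22 ± 0.18) and Dusp1 (0.27 ± 0.32) did not pass. The cDNA mean of Zbtb16 was 0.76 ± 1.08, with pools on both sides of 0, while Tsc22d3 (-1.09 ± 0.27) and Fkbp5 (-1.14 ± 0.34) kept their sign.

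**Figure D4:**
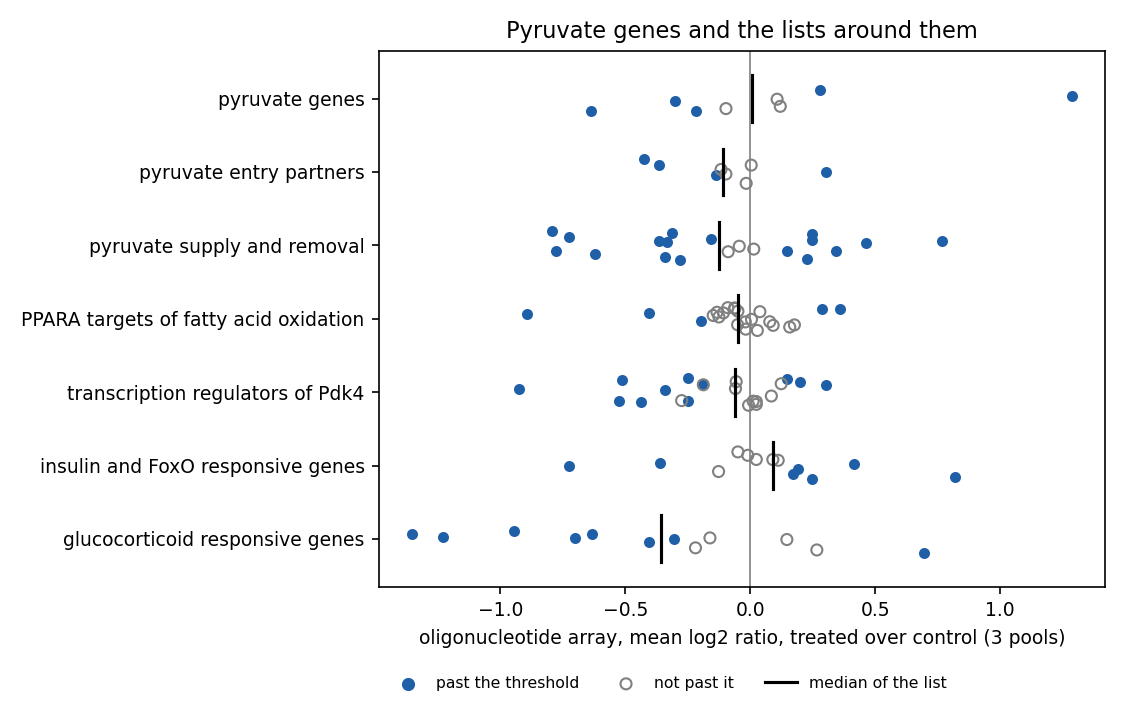
Mean log2 ratio of treated over control on the oligonucleotide array (x axis, mean of 3 pools) for the 8 measured pyruvate genes and the genes of 6 lists (rows). Filled dots passed limma's threshold over all genes, open dots did not, dots are spread vertically at random, and black lines are medians. Pdk4 is the rightmost dot of the top row at 1.29.

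Markers of cell types moved in the same arrays. Of 18 macrophage markers on the oligonucleotide array, 13 were higher and 4 lower, with list means of 1.30, 1.08 and 1.13 in pools 1, 2 and 3, and of 17 hepatocyte markers 0 were higher and 7 lower, with list means of -0.35, -0.37 and -0.32. Gpnmb (4.63 ± 0.07), Trem2 (4.31 ± 0.19), Clec7a (2.66 ± 0.16) and Cd68 (1.61 ± 0.09) rose among macrophage markers, where Ccr2 (0.08 ± 0.23) did not pass. The 4 lower macrophage markers, named here after their values were seen, were the scavenger receptors Cd163 (-1.77 ± 0.13, cDNA mean -2.53 ± 1.32) and Marco (-1.24 ± 0.76), the integrin Itgam (-0.43 ± 0.06) and the complement receptor Vsig4 (-0.17 ± 0.05). Among hepatocyte markers Tdo2 (-0.91 ± 0.13), Ass1 (-0.70 ± 0.05) and Arg1 (-0.70 ± 0.03) fell besides Tat. Alb and Fabp1, both at -0.28 ± 0.26, did not pass and read the same to 2 decimals in each pool, at -0.05, -0.21 and -0.57. Ahsg, named after its values were seen, read the same as well. These may not be separate readings, and the hepatocyte counts and list means hold all of them. Genes outside the marker lists shared this ratio as well, among them Apoe with an oligonucleotide mean of -0.28. On the cDNA array Alb lay at -0.06 ± 0.04 and Fabp1 at 0.31 ± 0.13. Pdk4 is also known from muscle and fat. Of 14 skeletal muscle markers 5 were higher and 0 lower, beside 22.0% and 21.4% of all genes (3 higher without pool 1), led by Tnnt3 (0.35 ± 0.05) and Tnni2 (0.45 ± 0.13), with Acta1 at -0.11 ± 0.04 not past the threshold. Of 11 adipocyte markers 2 were higher, Fabp4 (1.23 ± 0.21) and Car3 (0.74 ± 0.13), and 3 lower, while Adipoq (-0.11 ± 0.06) did not pass. Among the lower ones were Plin1 (-0.34 ± 0.04) and Pck1 (-0.73 ± 0.20), a gene that the insulin and FoxO list holds as well. The part of these cell types in the ratio of any pyruvate gene was not tested.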

How the data were processed

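Liver RNA of 3 treated pools was read against 1 control pool on 6 Agilent arrays. The authors deposited 1 log ratio per feature and array, read here as log2. Per the labels, 10 ug of RNA was labelled directly for cDNA arrays, and 0.5 ug after linear amplification for oligonucleotide arrays. For log base, normalization and filters, nothing is stated in the labels. Of all deposited values, the largest absolute one was 6.34, above the log10 of the largest 16-bit value (4.82). A natural log would make every fold larger, for example 3.62 in place of 2.44 for Pdk4 on the oligonucleotide array. Without intensities, signal over background is unknown, and precision is limited by how many arrays were run.

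Deposited zeros counted as missing, arrays were centred on their median, and features naming 1 gene, per the platform annotation, were averaged per gene. Symbols were matched through gene IDs to RefSeq genes of GRCm38.p6, and 0 changed. Limma 3.58.1 in R 4.3.3 (lmFit, eBayes, Benjamini-Hochberg over all genes, threshold 0.05) tested the mean ratio against 0 per array type and for pool averages, and the difference between array types over 6 arrays. With 1 control pool, the tests do not include variation among control animals, and without swapped dyes a dye effect cannot be told apart from treatment. Scripts were tested on simulated data. Figures were drawn with matplotlib 3.10.9 and pandas 2.3.3 (Python 3.11.15).

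Pools pair the array types because each RNA was split. Which arrays share a pool was taken from the sample numbers in their titles. The correlation of same-pool deviations across genes was 0.06, 0.07 and 0.07. The genes and lists were chosen with earlier results of these data known. Named genes were every pyruvate gene and partner, the up to 4 smallest p past the threshold and up to 2 largest ratios not past it per list, and the 6 genes nearest to Pdk4. Alternatives were other centring, zeros kept, another choice of feature, scaling, no shared prior, a robust prior, each pool left out and the pool as a block.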

Additional observations from a re-analysis of the deposited data

Results flagged for a closer look

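Pdk4 read 1.96 log2 units higher on the oligonucleotide array than on the cDNA array. It was marked for a closer look because the same contrast gave a different value on the 2 array types, past limma's threshold over 4702 genes (adjusted p = 0.0176) but not with the pool as a block (adjusted p = 0.128). Pdk4 was singled out with both sets of ratios known, so these p-values draw on the values that chose it and are not independent evidence. The distance was positive in 3 of 3 pools. Groups of 3 arrays are too small for a check of single outlying arrays.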

How the results depend on the processing

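Pdk4 kept its sign on each array type under every alternative run, from 1.18 to 1.42 on the oligonucleotide array and from -0.795 to -0.55 on the cDNA array with 1 pool left out. The count of pyruvate genes past the threshold on the oligonucleotide array was 5. It was 3 to 4 with 1 pool left out, 4 with arrays scaled to equal spread and 0 without the shared prior, where the count of list genes was 2, against 100, and that of all genes 40, against 7318. With 1 pool left out, 83 to 91 list genes passed, and without pool 1, 4025 of all genes. On the cDNA array and for pool averages the count of pyruvate genes was 0 throughout. One pyruvate gene, Pdk4, had an array-type difference, and 0 to 1 with 1 pool left out. With the replicate block the count was 0 and the distance of Pdk4 stayed at 1.96. Over all genes the array-type count was 537. It was 0 with the block, without pool 1 or without pool 2, 1062 without pool 3, 349 with zeros kept, 831 with arrays and 958 with array types scaled. For pool averages, 240 genes passed, against 531 without pool 3, 546 with arrays scaled, and 0 without pool 1, without pool 2, without the shared prior or with zeros kept. No result reversed. The causes were not tested.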

Other observations

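Markers of other cells a liver holds were read on the oligonucleotide array as well. Of 14 lymphocyte and neutrophil markers, 11 were higher and 0 lower, with S100a9 at 1.996 ± 0.42, S100a8, its partner in neutrophil cytosol, at 1.33 ± 0.29, Camp at 0.94 ± 0.17 and Jchain, the joining chain of antibodies, at 0.93 ± 0.06. Cd3e (0.11 ± 0.06) and Nkg7 (-0.11 ± 0.06) did not pass. S100a9 (1.93 ± 0.85) and S100a8 (2.31 ± 0.66) were positive on the cDNA array as well. Of the 9 such markers with cDNA values, 5 had means above 0 and 4 below, and Cd79b (0.53 ± 0.21, cDNA mean -1.12 ± 1.58), Ms4a1 (0.38 ± 0.02, cDNA mean -0.64 ± 0.47) and Cd8a (0.25 ± 0.14, cDNA mean -0.72 ± 1.16), named after their values were seen, were higher on the oligonucleotide array with a negative cDNA mean. Of 14 stellate and endothelial markers, 7 were higher and 0 lower (1 lower without pool 3), with Col3a1 at 0.85 ± 0.05, Pdgfrb at 0.56 ± 0.09, Acta2 at 0.55 ± 0.17 and Dcn at 0.54 ± 0.14. Pecam1 (-0.11 ± 0.15) and Lyve1 (0.16 ± 0.14) did not pass. On the cDNA array Acta2 lay at -0.20 ± 0.04, below 0 in every pool, and Dcn at -0.04 ± 0.18, with pools on both sides of 0. Of the 7 such markers with cDNA values, 3 had means above 0, among them Col1a1 at 0.69 ± 0.17, and 4 below. The counts on the oligonucleotide array stand beside 22.0% of all genes higher and 21.4% lower.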
